A study of Mus musculus with 18 samples.

Results

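The growth hormone and STAT5 pathway was followed through 10 genes in the liver of mice with an error-prone ribosome. The genes were the receptors *Ghr* and *Prlr*, the transducers *Stat5a* and *Stat5b*, the feedback inhibitors *Socs2* and *Cish*, the secreted products *Igf1* and *Igfbp3*, and the transcription factors *Bcl6* and *Cux2*. They were found by matching each symbol to its Ensembl identifier, and they are 10 of the 22524 genes listed. All 10 passed the count filter, which left 13353 genes for testing. Liver RNA was sequenced from 10 heterozygous *Rps2*-A226Y knock-in females (A226Y) and 8 wild-type females (WT), with 1 library per mouse. All 18 mice were 15 months old. The targeted allele was made in embryonic stem cells of another mouse strain, and the line was then backcrossed to C57BL/6. The A226Y line came from a cross with C57BL/6 mice that carry the ubiquitous CMV-Cre transgene, and the WT mice expressed Cre. Whether every A226Y mouse still carried Cre is not stated. RPS2 is a protein of the small ribosomal subunit, and the A226Y change lowers the accuracy with which the ribosome decodes mRNA. The A226Y mice were mosaics, because Cre never removed the stop cassette from every cell, and a cell that kept the cassette had a single working *Rps2* allele. The share of such cells in each liver was not known from the counts.

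Growth hormone from the pituitary binds GHR on hepatocytes, which activates the kinase JAK2 and leads to phosphorylation of STAT5A and STAT5B. The STAT5 proteins then bind DNA and switch on *Igf1*, *Igfals*, *Socs2*, *Cish* and other genes, and the SOCS2 and CISH proteins dampen the same signal. The timing of growth hormone pulses differs between male and female mice and sets many of the sex differences in liver gene expression, in which BCL6 and CUX2 act as repressors. The prolactin receptor is a close relative of GHR that also signals through STAT5 and is abundant in the liver of female mice.

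STAT5 dimers bind a short palindrome that reads TTCNNNGAA on both strands, and the promoters of the genes were searched for these letters. The windows were those of RefSeq on GRCm38.p6, each with 250 bases before an annotated start and 50 bases from it. Of the 10 genes, 9 had windows, 16 in all, and *Socs2* was not in the table. Of the 32851 windows of this length in the mouse table, 8.3% held the motif. Among the windows of the 10 genes, 4 held it, in *Prlr*, *Cish* and *Bcl6*, and *Igfals*, whose level is given among the IGF genes, held it in a pair of windows. The stretches are shown because they are the places in these promoters where the letters occur, with the motif in capitals and the other bases in lower case, each read 5′ to 3′ on the strand of its gene.
Prlr, second start, intronic, chr15:10223786-10223814, plus strand: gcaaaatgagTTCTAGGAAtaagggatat
Cish, start, in the untranslated part of an exon, chr9:107296654-107296683, plus strand: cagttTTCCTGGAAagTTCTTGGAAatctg
Bcl6, first start, upstream of the gene, chr16:23988952-23988980, minus strand: agcaaattagTTCTCAGAAttccagaggc
Bcl6, second start, intronic, chr16:23981353-23981461, minus strand: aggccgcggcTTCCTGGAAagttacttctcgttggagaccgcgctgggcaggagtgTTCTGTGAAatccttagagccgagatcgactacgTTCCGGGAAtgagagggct
Igfals, first start, inside the gene but outside its exons, chr17:24877598-24877626, plus strand: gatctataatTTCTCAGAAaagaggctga
Igfals, second start, inside the gene but outside its exons, chr17:24878163-24878191, plus strand: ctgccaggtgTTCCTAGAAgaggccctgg
*Cish* held 2 motifs that began at bases +1 and +12 from the start, and the second *Bcl6* window held 3, at -168, -122 and -88. Windows with 2 or more motifs made up 0.457% of the table, and 11 windows in all held 3. The letters were not in the windows of *Ghr*, *Stat5a*, *Stat5b*, *Igf1*, *Igfbp3* or *Cux2*. The last bases of the second *Prlr* and second *Bcl6* windows were found in no GENCODE transcript of their gene, so these RefSeq starts lack that backing. A match of letters is a description of the sequence, and binding of STAT5 was not measured.

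The libraries held between 23850565 and 62126131 counts per mouse in A226Y and between 25869192 and 34918732 in WT. *Rps2* itself fell in A226Y liver, from 114 ± 13 CPM (library counts scaled to a common total with the TMM method, mean ± SD) in 8 WT mice to 68.6 ± 13.3 in 10 A226Y mice, with no overlap between the groups. Its log2 fold change was -0.73 ± 0.11 (SE, edgeR adjusted p = 0.000772), and the counts do not separate mutant from normal transcripts. Across the genome 1910 of 13353 genes (14.3%) passed an adjusted p under 0.05 in edgeR's quasi-likelihood test, with 971 higher (7.27%) and 939 lower (7.03%) in A226Y. With library size alone as the scaling the split was 1399 higher and 660 lower. A226Y mouse 29 had the highest sum of acute phase mRNAs (75400 CPM) and WT mouse 33 the highest of its group (53000 CPM), against medians of 19300 and 19500.

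*Ghr*, *Prlr* and *Stat5a* fell by 30.3% to 33.7%, and they were the 3 genes that passed the test, all lower in A226Y, against 7.03% of all tested genes. None of the 10 passed in the higher direction, where the share of all genes was 7.27%. *Igf1*, *Cux2*, *Cish* and *Stat5b* had negative fold changes with unadjusted p-values under 0.05 that did not pass after adjustment, whereas *Socs2*, *Igfbp3* and *Bcl6* had small positive ones. The median log2 fold change of the 10 genes was -0.33, against -0.004 for all tested genes, and 7 of the 10 were negative against 51.0% of all genes.

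**Figure D1:**
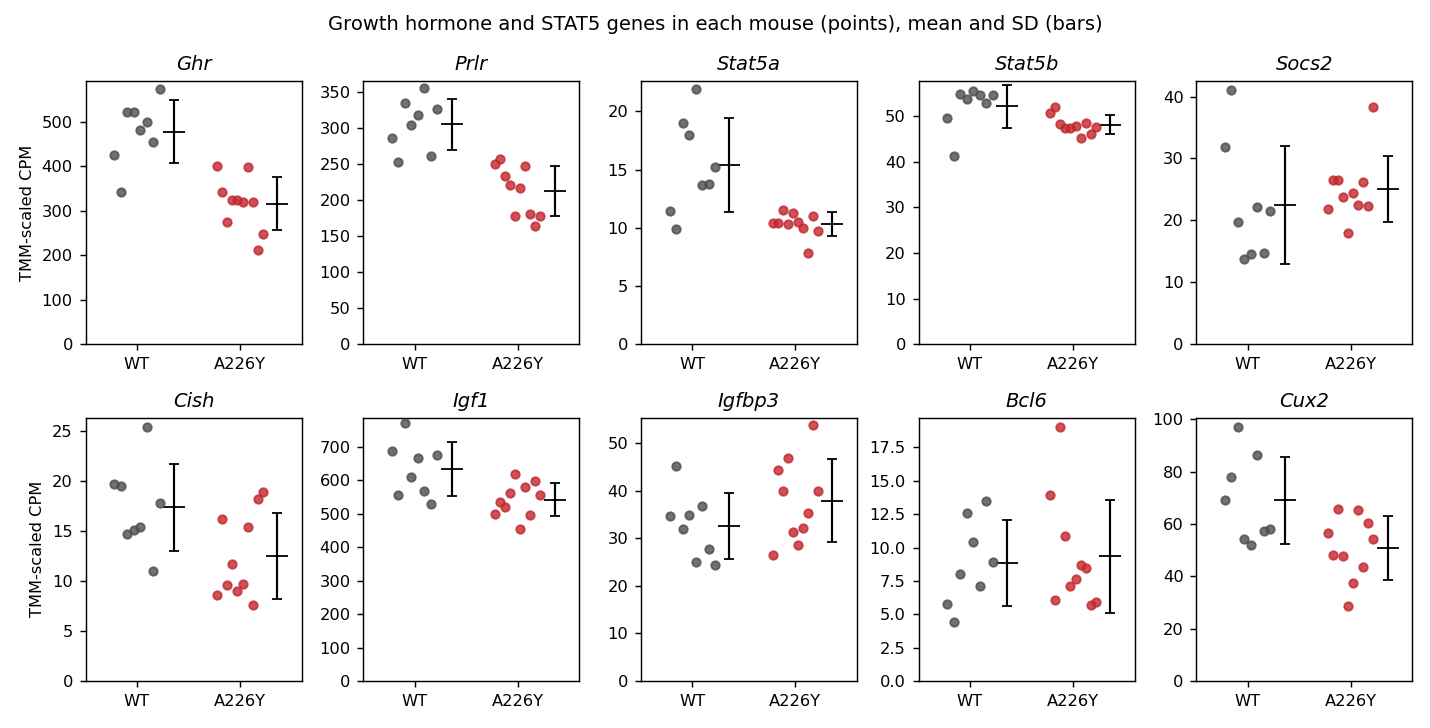
TMM-scaled CPM (y axis, from 0) of the 10 genes in each of the 8 WT mice (grey points) and 10 A226Y mice (red points), with the mean and SD of each group as a bar beside its points. The A226Y points of *Ghr*, *Prlr* and *Stat5a* lie mostly under the WT points, while those of *Socs2*, *Igfbp3* and *Bcl6* spread over the same range as the WT points.

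To set genes side by side, levels were divided by the length of all annotated exons of a gene merged. This length can exceed that of the transcripts made in liver, so the order between genes is approximate. On this scale *Igf1* was the most abundant of the 10 mRNAs in WT liver with 64.0 ± 8.19 CPM per kb. It was followed by *Ghr* with 52.6 ± 7.83 and *Prlr* with 19.8 ± 2.35 (SD, n = 8). *Igfbp3* followed with 10.4 ± 2.22 CPM per kb and *Stat5b* with 9.42 ± 0.865, a difference smaller than the SD of *Igfbp3*. *Cux2* stood at 6.85 ± 1.66 CPM per kb. *Cish*, *Socs2* and *Stat5a* had 2.7 ± 0.675, 2.36 ± 0.999 and 2.16 ± 0.564 CPM per kb, and neighbours in this order differed by less than their SD. *Bcl6* was lowest, with 1.32 ± 0.476 CPM per kb. In A226Y liver the order was the same for the 6 most abundant genes, with 54.8 CPM per kb for *Igf1*, 34.9 for *Ghr* and 13.8 for *Prlr*. The receptors and *Igf1* thus had at least 5044 counts in every mouse, whereas *Bcl6* had between 137 and 566 counts.

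*Ghr* (ENSMUSG00000055737, chr15:3317760-3583492 on GRCm38, minus strand) encodes the growth hormone receptor. Its level in WT mice was 342 CPM at the lowest, 489 at the median and 573 at the highest. In A226Y mice the lowest level was 212 CPM, the median 322 and the highest 400. Of the 10 A226Y mice, 7 lay below every WT mouse and 7 of the 8 WT mice lay above every A226Y mouse, and the exception was WT mouse 6. The means were 316 ± 59.3 CPM in A226Y (SD, n = 10) and 477 ± 70.9 in WT (n = 8). The log2 fold change was -0.59 ± 0.12 (SE, 95% interval -0.82 to -0.36, edgeR adjusted p = 0.00363), a fall of 33.7%. A two-sided exact permutation test over the 43758 divisions of the mice gave p = 0.000274. These are bulk samples, in which fewer cells of a type and less RNA per cell cannot be told apart.

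*Prlr* (ENSMUSG00000005268, chr15:10177238-10349180, plus strand) encodes the prolactin receptor. WT mice ranged from 252 CPM through a median of 310 to 355 CPM, and A226Y mice from 164 CPM through 218 to 256 CPM. Of the 10 A226Y mice, 9 were below all WT mice, and A226Y mouse 5 and WT mouse 6 met at the boundary. The means of 212 ± 35 CPM (SD, n = 10) and 304 ± 36 CPM (n = 8) gave a log2 fold change of -0.52 ± 0.10 (SE, 95% interval -0.71 to -0.33, edgeR adjusted p = 0.00309, exact permutation p = 0.000137). The annotation places the gene *Gm21973* on the same strand with 203 shared exon bases. It carried between 9.49% and 11.4% as many counts as *Prlr* in A226Y and between 10.2% and 11.2% in WT, so reads of one can be counted for the other. *Gm21973* also fell, from 32.6 ± 4.59 to 21.9 ± 3.28 CPM (log2 fold change -0.58, edgeR adjusted p = 0.00165). The *Prlr* window with the STAT5 letters shown above belongs to the second of its 3 annotated starts, and the counts do not show which start was used.

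*Ghr* and *Prlr* also varied together between mice of the same genotype. With each genotype's mean subtracted, their log2 CPM had a Pearson r of 0.74 over 18 mice (permutation p = 0.00069, adjusted over 45 pairs p = 0.031) and a Spearman rho of 0.72 (permutation p = 0.0017, adjusted p = 0.0765). Within the 10 A226Y mice r was 0.72 and within the 8 WT mice 0.78, and without the 2 mice farthest from the *Ghr* median it was 0.59. It was the only pair of the 45 to pass by Pearson's r, and no pair passed by Spearman's rho. With library size as the scaling no pair passed, and the number of passing pairs ranged from 0 to 6 when 1 mouse was left out. No pair passed in 8 of those 18 fits, which left out A226Y mouse 3, 18, 29 or 32 or WT mouse 4, 6, 13 or 33. A226Y mouse 29 had the lowest level of both receptors in its group and WT mouse 6 the lowest of both in the WT group.

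**Figure D2:**
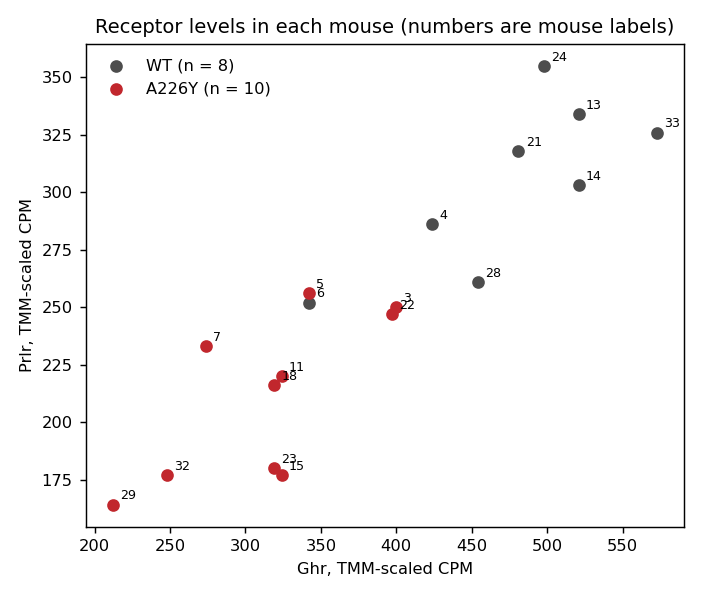
*Ghr* (x axis) against *Prlr* (y axis), both in TMM-scaled CPM, with a point for each mouse labelled by its number. WT mice (grey) reach 573 CPM of *Ghr* and 355 CPM of *Prlr*, A226Y mice (red) reach 400 and 256 CPM, and WT mouse 6 lies among the A226Y mice.

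*Stat5a* and *Stat5b* encode the closely related transcription factors that carry the signal to the nucleus, of which STAT5B is the main form in hepatocytes. *Stat5a* (ENSMUSG00000004043, chr11:100859351-100885169, plus strand) spanned 9.86, 14.5 and 21.9 CPM in WT mice (lowest, median and highest) and 7.83, 10.4 and 11.5 CPM in A226Y mice. Of the 8 WT mice, 6 were above every A226Y mouse, and WT mice 6 and 4 were within the A226Y range. The means were 10.3 ± 1.04 CPM in A226Y and 15.4 ± 4.02 in WT, so the WT mice also varied more, with a coefficient of variation of 26.1% against 10.1%. This gave a log2 fold change of -0.58 ± 0.12 (SE, 95% interval -0.82 to -0.34, edgeR adjusted p = 0.0056, exact permutation p = 0.000617).

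*Stat5b* (ENSMUSG00000020919, chr11:100780731-100850724, minus strand) was the steadiest of the 10 genes, with a coefficient of variation of 4.22% in A226Y and 9.18% in WT. It measured 41.2, 54.2 and 55.6 CPM in WT mice and 45.2, 47.8 and 52.1 CPM in A226Y mice (lowest, median and highest). There were 6 WT mice above all A226Y mice, and WT mouse 6 was below all of them. The log2 fold change of -0.12 ± 0.05 (SE, 95% interval -0.22 to -0.01) did not pass the test (edgeR adjusted p = 0.151, unadjusted 0.0418, exact permutation p = 0.0408). Without WT mouse 6 it was -0.16 and passed (edgeR adjusted p = 0.013), and over all alternatives the adjusted p ranged up to 0.831. The ratio of *Stat5b* to *Stat5a* in CPM per kb of merged exon lay between 5.37 and 7.99 in A226Y mice and between 3.28 and 5.59 in WT mice. The 2 genes share part of their sequence. Of the 50-base stretches of their transcripts, 8.21% of those of *Stat5a* and 11% of those of *Stat5b* occur in the other gene. A further 72 exon bases of *Stat5a* overlap *Stat3* on the opposite strand, and *Stat3* did not pass the test (log2 fold change -0.09, edgeR adjusted p = 0.715).

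The calls of *Ghr*, *Prlr* and *Stat5a* held in each of the 18 fits that left out 1 mouse, with log2 fold changes of -0.65 to -0.54, -0.56 to -0.48 and -0.65 to -0.49. The highest adjusted p-values in those fits were 0.0101, 0.00859 and 0.0147. They also held under 10 of the 11 other settings. With 4 surrogate variables, which are patterns of unexplained variation estimated from the counts themselves, none of the 3 passed. *Ghr* was then at -0.26 (adjusted p = 0.107), *Prlr* at -0.28 (0.133) and *Stat5a* at -0.24 (0.455), and these were their highest adjusted p-values over the 11 settings. Their lowest adjusted p-values over those settings were 6.18e-05, 3.72e-05 and 0.000318.

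*Socs2* and *Cish*, the feedback inhibitors that STAT5 switches on, had fold changes of opposite sign, neither of which passed the test. *Cish* (ENSMUSG00000032578, chr9:107296026-107302784, plus strand), whose start holds both of the motifs shown above, measured 11, 16.6 and 25.4 CPM in WT mice and 7.56, 10.7 and 18.9 CPM in A226Y mice (lowest, median and highest). Of the A226Y mice, 5 were below every WT mouse and the other 5 were within the WT range. The means of 12.5 ± 4.28 and 17.3 ± 4.34 CPM gave a log2 fold change of -0.48 ± 0.19 (SE, 95% interval -0.84 to -0.11), which did not pass (edgeR adjusted p = 0.0931, exact permutation p = 0.029). It passed without A226Y mouse 29 (-0.55, adjusted p = 0.0419), and the adjusted p reached 0.287 over the 11 other settings. *Cish* is overlapped on the opposite strand by *Gm17040* and *Gm17041*, which are not among the genes counted, and 9.35% of its 50-base stretches occur in another gene.

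*Socs2* (ENSMUSG00000020027, chr10:95385362-95417180, minus strand) measured 13.8, 20.7 and 41.1 CPM in WT mice and 18, 24.2 and 38.3 CPM in A226Y mice. All A226Y mice were within the WT range, and the highest level of all was that of WT mouse 6, which had the lowest *Ghr*, *Prlr*, *Stat5a*, *Stat5b* and *Bcl6* of the WT group. The log2 fold change was 0.15 ± 0.19 (SE, 95% interval -0.21 to 0.52, edgeR adjusted p = 0.622, exact permutation p = 0.27). Without A226Y mouse 32 it was 0.07 and without WT mouse 6 it was 0.34, neither past the test. With 4 surrogate variables its sign turned (-0.29, adjusted p = 0.511).

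*Igf1* (ENSMUSG00000020053, chr10:87858265-87937042, plus strand) encodes insulin-like growth factor 1, the hormone through which much of the action of growth hormone on body growth runs and which the liver secretes into blood. It measured 531, 638 and 772 CPM in WT mice and 456, 547 and 619 CPM in A226Y mice (lowest, median and highest). All 10 A226Y mice were below the WT mean, 4 of them below every WT mouse. The means of 542 ± 50.1 and 633 ± 81.1 CPM gave a log2 fold change of -0.22 ± 0.08 (SE, 95% interval -0.38 to -0.07), a difference of -14.4%. It did not pass the test over all genes (edgeR adjusted p = 0.0627), although its exact permutation p was 0.00992. DESeq2 (-0.22, adjusted p = 0.028) and the offset for GC content (-0.24, 0.046) called it, as did the fits without A226Y mouse 15 or 29 or WT mouse 6 or 28. Over the 11 other settings the adjusted p ranged from 0.028 to 0.43.

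*Igfbp3* (ENSMUSG00000020427, chr11:7206086-7213923, minus strand) encodes the main IGF carrier protein of blood, which in rodent liver is made largely outside hepatocytes. It measured 24.4, 33.4 and 45.2 CPM in WT mice and 26.4, 37.7 and 53.9 CPM in A226Y mice. Most mice of both groups shared 1 range, and 2 A226Y mice were above every WT mouse. Its log2 fold change was 0.21 ± 0.14 (SE, 95% interval -0.06 to 0.49, edgeR adjusted p = 0.312, exact permutation p = 0.184). The highest level was that of A226Y mouse 29, and without it the log2 fold change was 0.14.

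*Cux2* (ENSMUSG00000042589, chr5:121856366-122050102, minus strand) encodes a homeobox repressor that is found in female but hardly in male mouse liver. It measured 51.8, 63.5 and 97.2 CPM in WT mice and 28.6, 51.2 and 65.9 CPM in A226Y mice (lowest, median and highest), and 5 A226Y mice were below every WT mouse. The means of 50.8 ± 12.1 and 69.0 ± 16.7 CPM gave a log2 fold change of -0.44 ± 0.15 (SE, 95% interval -0.74 to -0.14), just outside the threshold (edgeR adjusted p = 0.0569, exact permutation p = 0.0171). DESeq2 called it (-0.44, adjusted p = 0.0324), as did the fits without A226Y mouse 7, 22 or 29 or WT mouse 21, and over the 11 other settings the adjusted p reached 0.243.

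*Bcl6* (ENSMUSG00000022508, chr16:23965052-23988852, minus strand) encodes a repressor that is higher in male liver, competes with STAT5 at shared sites and is itself lowered by growth hormone. Its second RefSeq start, whose window end was in no GENCODE transcript of the gene, holds the cluster of 3 motifs shown above. *Bcl6* measured 4.42, 8.47 and 13.5 CPM in WT mice and 5.67, 8.06 and 19.0 CPM in A226Y mice. The groups overlapped, with 2 A226Y mice above and 1 WT mouse below all mice of the other group, and with means of 9.34 ± 4.24 and 8.83 ± 3.19 CPM. The log2 fold change of 0.08 ± 0.25 (SE, 95% interval -0.4 to 0.56, edgeR adjusted p = 0.857, exact permutation p = 0.833) had an interval wide enough to hold a change of either sign. It was -0.09 without A226Y mouse 7, the mouse with the highest level, and -0.02 without WT mouse 6. *Bcl6* varied most among the A226Y mice, with a coefficient of variation of 45.5%.

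**Figure D3:**
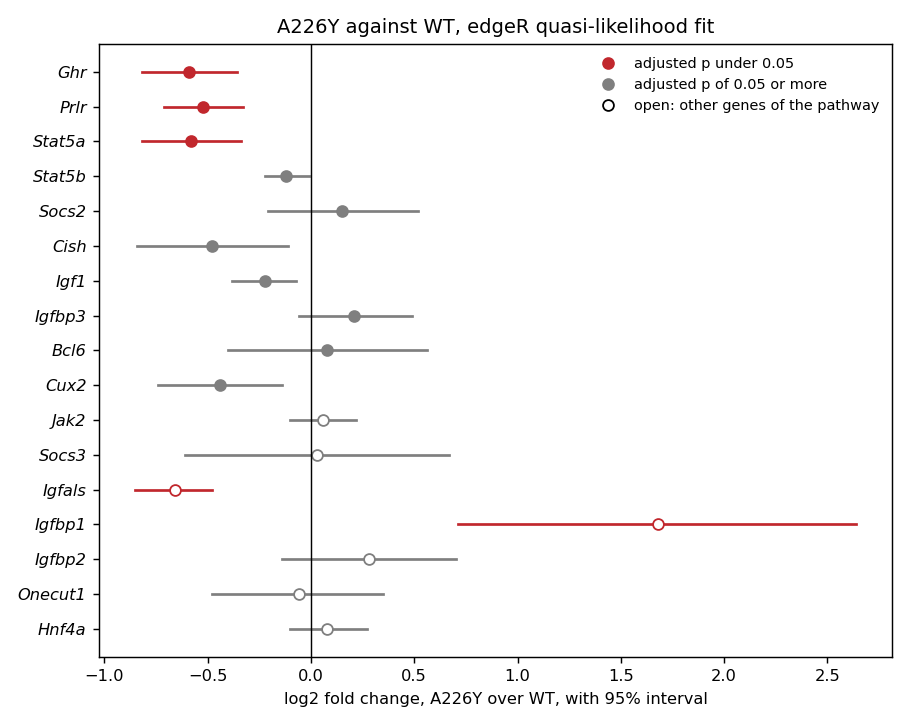
Log2 fold change of A226Y over WT (x axis) with its 95% interval for the 10 genes (filled points) and 7 other genes of the pathway (open points), red where the edgeR adjusted p was under 0.05. *Ghr*, *Prlr*, *Stat5a* and *Igfals* lie below 0 with intervals that exclude it, *Igfbp1* lies above 0, and *Jak2*, *Socs3* and *Hnf4a* have intervals that include 0. The intervals of *Igf1*, *Cux2*, *Cish* and *Stat5b* also exclude 0, although these genes did not pass after adjustment.

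The other genes of the pathway were read from 6 lists with 102 genes, of which 95 passed the count filter. Of the 95, 7 rose and 12 fell, which is 19 called genes against a background of 14.3% of all tested genes. That background was 7.27% higher and 7.03% lower, and it applies to each list below. Of 15 partners of the receptors in signalling, 1 rose and 2 fell, with a median log2 fold change of -0.04. *Jak2*, the kinase that sits on both receptors, had 18.5 ± 2.71 CPM in A226Y and 17.8 ± 1.48 in WT, a log2 fold change of 0.06 ± 0.08 (SE, edgeR adjusted p = 0.685). *Tyk2*, another Janus kinase, fell by 0.20 on the log2 scale (adjusted p = 0.0397) and *Sos1*, which couples receptors to RAS, rose by 0.25 (adjusted p = 0.0179). The call of *Tyk2* held in 9 of the 18 fits without 1 mouse and under 7 of the 11 other settings. That of *Sos1* held in all 18 fits but under 8 of the 11 settings, with a log2 fold change of 0.13 and an adjusted p of 0.122 under the length offset, and adjusted p-values between 0.00728 and 0.275 over the settings.

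Among 18 other inhibitors of JAK and STAT signalling 3 rose and none fell, with a median of 0.04 on the log2 scale. *Ptpn11*, which encodes the phosphatase SHP2, rose from 73.9 ± 8.08 to 88.9 ± 5.03 CPM (log2 fold change 0.27 ± 0.06, edgeR adjusted p = 0.00831), and 5 A226Y mice were above every WT mouse. *Socs4*, a relative of *Socs2*, rose from 20.4 ± 1.99 to 23.9 ± 1.64 CPM (log2 fold change 0.23, adjusted p = 0.0173). *Trim24*, a nuclear co-regulator, rose by 0.29 on the log2 scale (adjusted p = 0.0403) and was called in 6 of the 18 fits without 1 mouse and under 7 of the 11 other settings. *Socs3*, the inhibitor induced by interleukin signalling, had 8.9 ± 6.05 CPM in A226Y and 8.74 ± 4.99 in WT (log2 fold change 0.03 ± 0.33, adjusted p = 0.964), with its highest levels in A226Y mouse 29 (24.4 CPM) and WT mouse 33 (20.6 CPM).

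In the IGF system 14 genes were listed and 11 tested, and 1 rose and 1 fell, with a median of 0.10 on the log2 scale. *Igfals* encodes the acid-labile subunit that keeps IGF1 and IGFBP3 in the circulation, and it is a known STAT5 target of hepatocytes. The gene lies on chromosome 17, as does the targeted *Rps2* gene, and the distance between the genes was not measured. Whether sequence of the embryonic stem cell strain remained around them is not known from the counts. A local effect of the targeted allele or of such sequence on *Igfals* cannot be told apart from other effects of the genotype. It was not tested. *Igfals* measured 131, 170 and 197 CPM in WT mice and 82.6, 104 and 142 CPM in A226Y mice (lowest, median and highest). All but 1 of the 10 A226Y mice were below every WT mouse. The means of 106 ± 16.6 and 169 ± 21.2 CPM gave a log2 fold change of -0.66 ± 0.09 (SE, edgeR adjusted p = 0.000701, exact permutation p = 6.9e-05). The call held in all 18 fits without 1 mouse (-0.72 to -0.63), and with 4 surrogate variables the value was -0.46 (adjusted p = 0.0748, the highest over the 11 other settings, of which the lowest was 2.16e-08).

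*Igfbp1*, an IGF carrier that rises in fasting and falls with insulin, was the other IGF gene called. It measured 20.4, 46.4 and 88.4 CPM in WT mice and 42.9, 93.8 and 685 CPM in A226Y mice, and 6 A226Y mice were above every WT mouse. The log2 fold change was 1.68 ± 0.49 (SE, edgeR adjusted p = 0.0283), but A226Y mouse 29 alone carried the value of 685 CPM, and without it the log2 fold change was 1.05. The call was lost without WT mouse 13, 14 or 24 (highest adjusted p = 0.0598) and with 4 surrogate variables (0.42, adjusted p = 0.596). *Igfbp2*, another IGF carrier, had 909 ± 280 CPM in A226Y and 748 ± 259 in WT (log2 fold change 0.28 ± 0.21, adjusted p = 0.399).

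Genes whose liver levels differ between male and female mice are a classical readout of growth hormone signalling. All 20 female-biased genes listed were tested, 4 fell and none rose, with 16 of 20 negative and a median log2 fold change of -0.33. Among all tested genes 7.03% fell, 7.27% rose and 51.0% had negative fold changes. *A1bg*, a plasma protein, varied from 19.3 to 1690 CPM among WT mice and from 7.9 to 351 CPM among A226Y mice (log2 fold change -2.57 ± 0.77, edgeR adjusted p = 0.0318). *Cyp3a41b*, a cytochrome P450 with near-identical copies that can exchange reads, had means of 1.41 ± 3.45 CPM in A226Y and 17.3 ± 17.3 in WT (log2 fold change -3.77 ± 1.0, adjusted p = 0.0167). It reached 10 counts in 4 of 10 A226Y mice and 7 of 8 WT mice, so it passed the count filter only through the group where it was higher, and its call is no support for the list. Without A226Y mouse 5 its log2 fold change was -5.78, and with 4 surrogate variables -0.64. *Hamp2*, a hepcidin, fell from 72.9 ± 45.1 to 31.6 ± 20.0 CPM (log2 fold change -1.20 ± 0.40, adjusted p = 0.0479). *Slc22a26*, a transporter and the remaining gene of the 4, had a log2 fold change of -0.68 (adjusted p = 0.00671) and is named after its values were seen. The WT mice spread widely for *A1bg* and *Hamp2*, and their calls held in 11 and 6 of the 18 fits without 1 mouse.

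The male-biased genes moved in both directions. Of 20 listed, 16 were tested, 2 rose and 4 fell, and the median log2 fold change was -0.17. *Mup20*, a male urinary pheromone protein, rose from 25.5 ± 13 to 54.4 ± 23.9 CPM (log2 fold change 1.10 ± 0.31, edgeR adjusted p = 0.0244). *Cyp2d9*, a steroid-hydroxylating P450, rose from 8.17 ± 4.16 to 15.2 ± 4.91 CPM (0.89 ± 0.26, adjusted p = 0.0281). Both belong to families with near-identical copies. *Selenbp2* (-2.0, adjusted p = 0.013), the fatty acid elongase *Elovl3* (-1.26, 0.0281) and *Mup7* (-0.87, 0.0377) fell, each from a mean of under 5 CPM, and so did *Cyp2f2* (-0.58, 0.0173), which is named after its values were seen. The call of *Mup20* was lost without WT mouse 24, that of *Cyp2d9* without A226Y mouse 11 or WT mouse 13, 14, 21 or 24, and that of *Elovl3* without WT mouse 13, 14 or 21. *Mup7* was called in 6 of the 18 fits without 1 mouse.

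Of 15 hepatocyte regulators of the growth hormone response tested, 1 fell and none rose, with a median of -0.06 on the log2 scale. *Foxa2*, a factor that opens chromatin at liver genes, fell from 33.2 ± 3.42 to 26.4 ± 3.74 CPM (log2 fold change -0.33 ± 0.08, edgeR adjusted p = 0.0148). *Hnf4a*, the central hepatocyte factor, had 817 ± 84.0 CPM in A226Y and 771 ± 126 in WT (log2 fold change 0.08, adjusted p = 0.59), and *Onecut1*, a factor that growth hormone induces, had 16.9 ± 4.79 and 17.7 ± 6.66 CPM (-0.06, adjusted p = 0.873).

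**Figure D4:**
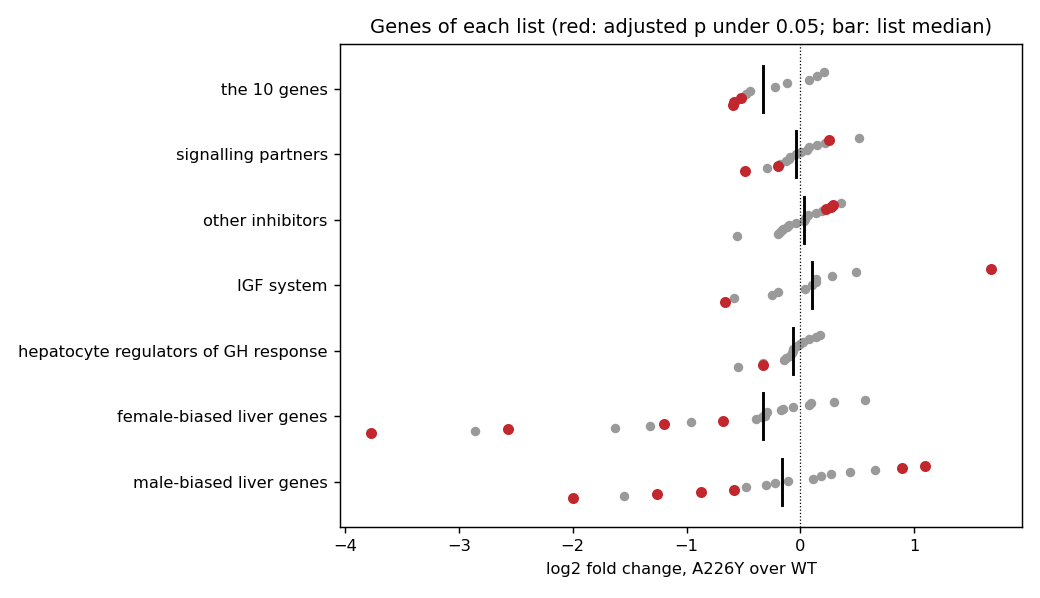
Log2 fold change of A226Y over WT (x axis) for each tested gene of the 10 genes and of the 6 other lists of the pathway, with genes at an adjusted p under 0.05 in red and a bar at the median of each list. The medians of the 10 genes and of the female-biased genes lie at -0.33, and those of the signalling partners, other inhibitors, IGF genes and hepatocyte regulators lie within 0.10 of 0.

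Markers of the cell types of liver were read beside these results. Among all tested genes 7.27% rose, 7.03% fell and 51.0% had negative fold changes. Of 10 hepatocyte markers 2 rose and 1 fell, and their summed level spanned 82100 to 161000 CPM in A226Y and 104000 to 184000 in WT. Abundant genes dominate such sums, here *Alb* with means of 96100 CPM in A226Y and 90900 in WT. *Tat* (log2 fold change 0.85, edgeR adjusted p = 0.0331) and *Cps1* (0.55, adjusted p = 0.0137) were the 2 that rose, the call of *Cps1* in all 18 fits without 1 mouse and that of *Tat* in 12 of them (lost without A226Y mouse 7 or 32 or WT mouse 14, 21, 24 or 33, highest adjusted p = 0.0693). The gene that fell was *Apoa2* (-0.31, adjusted p = 0.0481), named after its values were seen. Of 11 Kupffer cell markers, 10 had negative fold changes and 1 passed, *Clec4f*, which fell from 170 ± 37.8 to 109 ± 44.8 CPM (-0.65, adjusted p = 0.0261) and did not pass without WT mouse 14 (-0.61, adjusted p = 0.0577). The Kupffer sum spanned 381 to 1500 CPM in A226Y (median 525) and 578 to 1170 CPM in WT (median 834), with the highest value in A226Y mouse 29. None of 10 sinusoidal endothelial markers passed (413 to 590 against 409 to 537 CPM in sum). Of 10 stellate cell markers 2 fell, *Col1a1* (-0.77, adjusted p = 0.0162) and *Col3a1* (-0.60, adjusted p = 0.00516), with sums of 377 to 451 against 361 to 446 CPM. *Dcn*, with means of 246 CPM in A226Y and 218 in WT, made the largest part of the stellate sums. None passed among 6 cholangiocyte, 7 B and plasma cell, 7 T and NK cell, 6 neutrophil and monocyte and 5 erythroid markers. In these lists the sums were 13.5 to 30.6 against 12.2 to 26.5 CPM, 11.7 to 45.8 against 9.76 to 97.5, 3.75 to 10.6 against 4.87 to 14, 3.09 to 47.4 against 3.55 to 20.1 and 164 to 423 against 208 to 765 CPM in A226Y and WT. No listed marker, including those that failed the count filter, was at 0 in every mouse. The part of these differences in the levels of *Ghr*, *Prlr*, *Stat5a* and *Igfals* was not tested.

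Growth hormone signalling in liver also responds to feeding, inflammation and the time of day, so genes of these states were counted too. The background of all tested genes was 14.3% called and 51.0% with negative fold changes. All 11 fasting response genes had positive fold changes, with a median of 0.53 on the log2 scale, and 1 passed, the co-activator *Ppargc1a*, which rose from 13.3 ± 3.27 to 22.2 ± 5.65 CPM (log2 fold change 0.74, edgeR adjusted p = 0.00539). The fasting genes summed to 8860, 14400 and 19300 CPM in A226Y mice and to 5000, 9670 and 13800 CPM in WT mice (lowest, median and highest). None of 15 acute phase genes passed, and the median was -0.06. Of 15 clock genes 1 passed, *Clock*, which rose from 23.2 ± 4.38 to 35.5 ± 2.61 CPM with no overlap between groups (0.61, adjusted p = 0.000932), and the median of the list was -0.002. The labels give neither feeding state nor time of sampling, and the part of either in the receptor levels was not tested.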

How the data were processed

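The 10 genes, the other lists and the tests were chosen with earlier results of these data known. The authors deposited raw gene counts for each mouse, as whole numbers under Ensembl identifiers. The submitters' processing notes name fastp, STAR and featureCounts with GRCm38, whereas the paper's methods name RSEM and another build, so the step that made the counts is uncertain. Reads were single-end and 50 bases long, and use of strand in counting was not given in the sources used here.

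Genes were kept if they reached 10 counts in 50% or more of the samples of either genotype, and were tested with edgeR 4.0.16 in R 4.3.3 (TMM scaling, quasi-likelihood test, no covariates, Benjamini-Hochberg adjustment over 13353 genes). Single genes were also compared by two-sided exact permutation of log2 CPM (prior count 2), for which 2.29e-05 is the smallest p possible. The labels give no batch. Libraries of the same genotype differed by far more than sampling noise (lowest chi-square per degree of freedom 19.3), and none was treated as a duplicate. The common biological coefficient of variation between mice was 0.194. Counting error adds to this spread, most for genes with few counts such as *Selenbp2* (6 to 198 counts per mouse). Symbols, exon lengths and positions came from GENCODE M21 on GRCm38 (22291 of 22524 identifiers matched).

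Named were the 10 genes, up to 3 rising and 3 falling genes of each pathway list that passed the test at a mean of 1 CPM or more, up to 2 passing genes of each other list, and *Jak2*, *Igfals*, *Igfbp1*, *Igfbp2*, *Socs3*, *Onecut1*, *Hnf4a* and *Rps2*. Alternatives were RLE, upper quartile and library size scaling, 2 other filters, DESeq2 1.42.0, limma-voom (limma 3.58.1) and a robust fit. Further ones were 4 surrogate variables (sva 3.50.0), offsets for mean transcript length or GC content, and leaving out each mouse. The procedures were tested on simulated counts. The values of 1 gene that the rule names are not reported here.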

Additional observations from a re-analysis of the deposited data

Results flagged for a closer look

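In 40 genes described in each genotype, 12 of 80 groups of values held a mouse far from the others by Dixon's criterion. Independent values from a normal distribution meet it in about 1 group of 20. The CPM were not transformed and the genes share the same mice, so that rate cannot serve as the chance rate here. Among the 10 genes these were *Stat5a* in A226Y mouse 23 (7.83 CPM, against 9.73 to 11.5 in the other A226Y mice), *Stat5b* in WT mouse 6 (41.2 CPM, against 49.7 to 55.6) and *Socs2* in A226Y mouse 32 (38.3 CPM, against 18 to 26.5). A226Y mouse 29 stood apart for 4 further genes, with 685 CPM of *Igfbp1* (others 42.9 to 217), 351 CPM of *A1bg* (7.9 to 155), 24.4 CPM of *Socs3* (4.27 to 13.1) and 227 CPM of *Clec4f* (71.3 to 125). WT mouse 33 had 20.6 CPM of *Socs3* (4.98 to 9.49) and WT mouse 24 had 174 CPM of *Hamp2* (31.6 to 92.5). A226Y mouse 5 had 11.2 CPM of *Cyp3a41b* (0 to 1.1) and 4.32 CPM of *Mup7* (1.03 to 2.5), and A226Y mouse 15 had 2.59 CPM of *Selenbp2* (0.176 to 1.28). What set these mice apart was not tested.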

How the results depend on the processing

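The direction of *Ghr*, *Prlr* and *Stat5a* was negative under all 11 settings and in all 18 fits without 1 mouse. Of the 10 genes, 3 passed, and the number was 5 with DESeq2, 0 with 4 surrogate variables and between 3 and 6 without 1 mouse (6 without A226Y mouse 29 and 5 without WT mouse 6). Over all genes 1910 passed, 50 with surrogate variables, and between 1255 and 2560 without 1 mouse. The cause of the loss with surrogate variables was not tested. In the 6 pathway lists 19 genes passed, 1 with surrogate variables, and between 10 (without WT mouse 14 or 24) and 28 (without WT mouse 6). Of 25 named genes outside the 10 that passed, 1 passed with surrogate variables, *Rps2*. These list counts and those of genes outside the 10 were added after the data had been seen. Of the 45 correlations 1 passed, 0 with library size scaling, and 0 to 6 without 1 mouse.

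Signs turned with surrogate variables for *Stat5b* (0.03), *Socs2* (-0.29), *Elovl3* (0.01), *Igfbp2* (-0.20), *Hnf4a* (-0.05) and *Tat* (-0.04), with the length offset for *Jak2* (-0.01) and with limma-voom for *Socs3* (-0.02). Without 1 mouse, *Bcl6* ranged from -0.09 to 0.20, *Socs3* from -0.28 to 0.33 and *Onecut1* from -0.16 to 0.01. None of these causes was tested. With library size alone the share of called genes that were higher rose from 50.8% to 67.9%, and the median of all genes lay at 0.04 on the log2 scale against -0.004. No paired analysis was possible because the labels give no litter or other pairing of A226Y with WT mice. Depth was lowest for *Bcl6*, with 137 counts in the mouse with the fewest.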
